A study of Mus musculus with 2 samples.

Results

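Costameres are the rib-like attachment sites that link the outermost sarcomeres of a muscle fibre through its membrane to the basement membrane. The genes described here are 8 named components of that link, taken by name from the mm9 GENCODE annotation out of 22380 protein-coding genes: *Lama2*, *Itga7*, *Itgb1*, *Tln1*, *Tln2*, *Vcl*, *Ilk* and *Svil*. HITS-CLIP sequences the short RNA fragments, or tags, that are crosslinked by UV light to a protein in the tissue and come down with it in an immunoprecipitation, and here the protein was Mbnl2, taken with mAb 3B4 from quadriceps. WT mice and *Mbnl1*-/- mice (*Mbnl1* KO, which lack Mbnl1 in the whole body from the germline), 15 to 16 weeks old and labelled C57BL/6, were compared to ask whether Mbnl2 binds more RNA when Mbnl1 is lost. Tags of 3 mice per genotype were merged into 1 library, so the spread between mice is not known, no test between genotypes was possible, and the intervals below, which stand for counting error alone, set 1 library against the other and say nothing of the genotypes. RNase A was used at a high and a low concentration (38.6 and 0.0386 U/ml), and the tables do not mark which tags came from which. The study's methods name a mixed C57BL/129 background for the compound knockout crosses, while the labels of these samples give C57BL/6.

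In skeletal muscle the α7β1 integrin is the main laminin receptor. Its β1 chain is joined to the actin cytoskeleton by talin and vinculin, with integrin-linked kinase as a scaffold at the same site, while supervillin lines the membrane and binds actin and myosin. Loss of the laminin α2 chain causes a congenital muscular dystrophy, and loss of integrin α7 a congenital myopathy. Muscleblind proteins such as Mbnl1 and Mbnl2 bind RNA at YGCY motifs, where Y is C or T, in introns near regulated exons and in 3′UTRs.

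The WT library held 343554 tags and the *Mbnl1* KO library 476543. Reads behind them were far more unequal, 5176203 in WT and 50329234 in *Mbnl1* KO (15.1 and 106 reads per tag), so read numbers given below are not comparable between the libraries. Some tags map to runs in which 1 base, mostly A, fills at least 70% of the positions, and these are called single-base tags. Their share was 44.0% in WT (95% interval 43.9 to 44.2) and 17.0% in *Mbnl1* KO muscle (16.9 to 17.1), and since levels are given per 1000000 tags of a library, this difference enters each ratio. Ratios are therefore also given without single-base tags. The 9 skeletal fibre markers (*Acta1*, *Ckm*, *Ttn* and others) carried 2681 tags per 1000000 in WT and 7055 in *Mbnl1* KO muscle, and none was at 0, while 4 cardiac markers summed to 6 WT and 3 *Mbnl1* KO tags, with *Nppa* at 0 in both libraries. Markers of fibroblasts summed to 541 and 1624 tags per 1000000, for which the ratio was 3.00 (2.55 to 3.54), and those of endothelium to 108 and 183. Fat markers had 1 and 13 tags (ratio 9.37, 1.41 to 398), and immune markers 9 and 8 (0.641, 0.215 to 1.87). The part of these cell types in the ratios below was not tested. The *Mbnl1* gene itself had 100 WT and 452 *Mbnl1* KO tags. It does not check the labels, because the targeted allele lacks only part of the gene and the position of the deletion was not used here.

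On the strand of the 8 genes lay 175 WT and 450 *Mbnl1* KO tags, and their summed *Mbnl1* KO/WT ratio of tags per 1000000 was 1.85 (interval 1.55 to 2.22). Without single-base tags the ratio was 1.51 (1.24 to 1.85). The amount of each RNA was not measured, so in these bulk libraries more Mbnl2 on an RNA, more of that RNA and more of the cells that make it cannot be told apart. Among the 6 genes with at least 20 tags, *Itgb1*, *Tln1* and *Vcl* (3 genes) had a ratio of at least 2 and none had a ratio of at most 0.5. Over all 3888 protein-coding genes with at least 20 tags, 41.6% had a ratio of at least 2 and 3.76% a ratio of at most 0.5. The 6 genes had a median ratio of 2.06, beside 1.75 over all 3888 genes, so the costamere genes lay near the level of the whole table. An interval wholly above 1 was found for 5 of the 6 genes and for 38.6% of the 3888. *Lama2* and *Svil* came just under the fold of 2. Once single-base tags were left out, 0 of the 6 genes reached a ratio of 2, against 29.1% of 3307 genes, and their median was 1.61 against 1.48. Then 3 of the 6 intervals (*Itgb1*, *Lama2* and *Svil*) lay above 1, beside 26.5% of all genes. When the libraries were scaled so that the median gene has a ratio of 1, 0 of the 6 intervals lay above 1, beside 11.8% of all genes, and that of *Tln2* lay below 1. The antisense strand of the 8 genes carried 72 WT and 87 *Mbnl1* KO tags, and that ratio was 0.871 (0.630 to 1.21). Most of these lay in the very long genes *Lama2* (38 WT and 36 *Mbnl1* KO) and *Tln2* (14 and 33). *Vcl* had 13 and 5, and *Itgb1*, *Tln1* and *Svil* had at most 4 WT and 9 *Mbnl1* KO antisense tags.

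**Figure D1:**
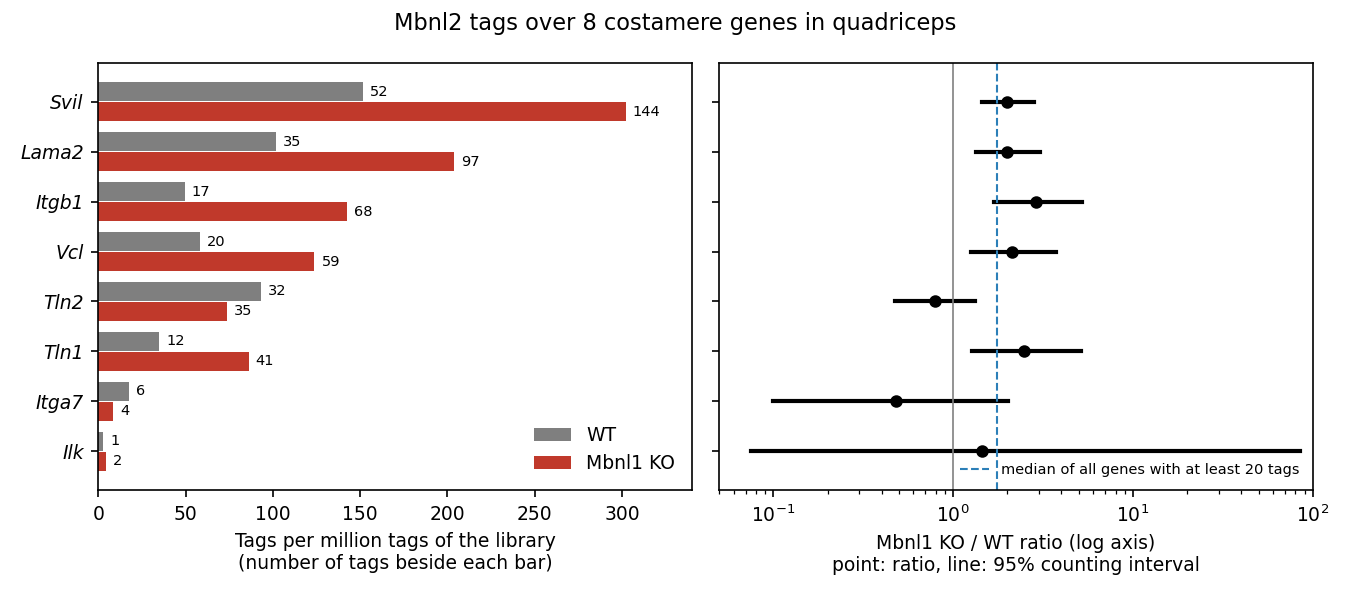
Left, tags per 1000000 tags of the library on the strand of each gene in WT (grey) and *Mbnl1* KO (red) quadriceps, with the number of tags beside each bar; right, the *Mbnl1* KO/WT ratio with its 95% counting interval on a log axis and the median of 3888 genes (dashed, 1.75). *Svil* carried the most tags. At this scaling 5 of the 6 genes with at least 20 tags had an interval wholly above 1, beside 38.6% of the 3888 genes. Without single-base tags 3 had one, and none when scaled to the median gene. *Tln2* and *Itga7* had ratios below 1 at the scaling shown, with intervals that include 1.

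By level, the order in *Mbnl1* KO muscle was *Svil* (302 tags per 1000000), *Lama2* (204), *Itgb1* (143), *Vcl* (124), *Tln1* (86.0), *Tln2* (73.4), *Itga7* (8.39) and *Ilk* (4.20). In WT muscle *Tln2* (93.1 tags per 1000000) stood higher, after *Svil* (151) and *Lama2* (102) and ahead of *Vcl* (58.2) and *Itgb1* (49.5). These genes differ greatly in length, and per kb of gene the order changed. *Itgb1* had 1.04 WT and 3.00 *Mbnl1* KO tags per 1000000 per kb and *Tln1* 1.12 and 2.76, whereas *Lama2*, the longest of them, had 0.160 and 0.320.

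*Lama2* encodes the α2 chain of laminin-211, the basement membrane protein that the α7β1 integrin binds. The gene (ENSMUSG00000019899.8, mm9 chr10:26701094-27336748, minus strand, 636 kb) carried 35 WT and 97 *Mbnl1* KO tags. This equals 102 and 204 tags per 1000000, with a ratio of 2.0 (1.34 to 3.03). It had 11 single-base tags in WT and 13 in *Mbnl1* KO, and 24 and 84 others, for a ratio of 1.72 (1.08 to 2.83). Its antisense strand carried 38 WT and 36 *Mbnl1* KO tags, more than the sense strand in WT, and 21 and 29 without single-base tags. Nearly all WT tags were intronic (32 of 35), and in *Mbnl1* KO muscle 66 of 97 were. The intron ratio of 1.49 (0.961 to 2.34) did not separate the libraries at this depth. Coding exons differed more, with 3 WT and 30 *Mbnl1* KO tags and a ratio of 7.21 (2.24 to 36.9), or 4.92 (1.53 to 25.2) without single-base tags in the totals. The coding share of the gene's tags was 8.57% (1.80 to 23.1) in WT and 30.9% (21.9 to 41.1) in *Mbnl1* KO muscle. These tags were spread out rather than gathered in a site. In the longest coding transcript, 16 of 65 exons carried a tag, 3 of them in WT and 16 in *Mbnl1* KO, and none more than 4 tags. Of the coding tags, 2 in WT and 18 in *Mbnl1* KO rested on at least 2 reads. The 3′UTR, annotated at only 210 nt, had 0 WT tags and 1 *Mbnl1* KO tag, where a count of 0 allows up to 8.73 tags per 1000000.

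One run of at least 5 overlapping tags, called a cluster, was found in *Lama2*, in an intron at mm9 chr10:26851712-26851750. It had 4 WT and 7 *Mbnl1* KO tags, all 11 of them single-base. It is shown because it is the densest place in this gene and holds no YGCY motif. The 30 nt around its deepest position (chr10:26851718-26851747, minus strand), read 5′ to 3′ on the strand of the gene as in all sequences here, are:
Lama2 1: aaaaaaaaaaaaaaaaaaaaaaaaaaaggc

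*Itga7*, the α chain of the muscle laminin receptor, carried few tags (ENSMUSG00000025348.7, chr10:128370869-128395333, plus strand, 24.5 kb). There were 6 in WT and 4 in *Mbnl1* KO muscle, or 17.5 and 8.39 tags per 1000000. The ratio of 0.481 has an interval from 0.10 to 2.03, so no difference was detectable. The 3′UTR held 3 WT tags and 1 *Mbnl1* KO tag, introns 3 and 2, and coding exons 0 and 1. No cluster of 5 tags formed in the gene. Its 132-nt exon at chr10:128378501-128378632, which some annotated transcripts skip, had 0 WT and 2 *Mbnl1* KO tags within 300 nt, and 0 inside it.

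*Itgb1* encodes the β1 chain, the partner of α7 and of most laminin and collagen receptors. This gene (ENSMUSG00000025809.8, chr8:131209554-131257100, plus strand, 47.5 kb) had 17 WT and 68 *Mbnl1* KO tags, 49.5 and 143 tags per 1000000. Its ratio of 2.88 (1.68 to 5.24) was the highest of the 8 genes. After single-base tags were removed it was 1.94 (1.13 to 3.52), again the highest of the 6 genes with at least 20 tags. Each part of the transcript other than the 5′UTR was higher in *Mbnl1* KO muscle. The 3′UTR had 7 and 31 tags (ratio 3.19, 1.38 to 8.59), coding exons 2 and 14 (5.05, 1.16 to 45.7), and introns 4 and 20 (3.60, 1.21 to 14.5). Without single-base tags these ratios were 2.18 (0.941 to 5.86), 3.44 (0.791 to 31.2) and 2.34 (0.777 to 9.44), and each interval then includes 1. In the 5′UTR the numbers were 4 in WT and 3 in *Mbnl1* KO. Tags that rested on at least 2 reads numbered 8 in WT and 51 in *Mbnl1* KO muscle.

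Most of the *Itgb1* 3′UTR tags lay in 1 cluster close to the end of the transcript, at chr8:131256985-131257040. It runs from 1000 to 1055 nt after the last coding base and ends 60 nt before the annotated end of the 1115-nt 3′UTR. There were 5 WT and 20 *Mbnl1* KO tags in it, or 14.6 and 42.0 tags per 1000000, for which the ratio was 2.88 (1.05 to 9.83). That ratio is scaled to all tags of the libraries. Without single-base tags the scaling factor falls from 0.721 to 0.492, so the ratio would be lower, and its interval was not computed. The 25 tags lie at 12 distinct positions and are not independent, which the counting interval leaves out. They stood on 238 reads in WT and 20475 in *Mbnl1* KO muscle, the deposited counts before any scaling and with the unequal read totals given above. A second cluster lies in an intron at chr8:131222167-131222216, 7096 nt upstream of the nearest exon, with 2 WT and 6 *Mbnl1* KO tags. The third covers the end of the first exon, at chr8:131209836-131209861, with 4 and 3 tags. The sequences show what Mbnl2 tags cover in this gene. Capitals mark the YGCY motif (TGCT or TGCC, where Y is T at the start, and otherwise CGCT or CGCC, on the strand of the gene), and the windows are chr8:131209835-131209864, chr8:131222172-131222201 and chr8:131256983-131257012, all on the plus strand.
Itgb1 1: cgtgtcgggcggaCGCTgcgaaaaggtaag
Itgb1 2: ggctccTGCTgcgtgttTGCTcttactcag
Itgb1 3: cctacaTGCTTGCTctgtctcgaactagtc

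The window of the 3′UTR cluster holds 2 adjoining TGCT motifs. Of 887697 windows of 30 nt that tile the 3′UTRs of protein-coding genes, 28.2% hold at least 1 YGCY motif. A motif match is a description of the sequence and does not show that Mbnl2 contacts it. The 81-nt exon of *Itgb1* at chr8:131250883-131250963, which 1 of 2 annotated transcripts skips, had 1 WT and 2 *Mbnl1* KO tags within 300 nt.

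Talin 1 and talin 2 connect the tail of β1 integrin to actin, and talin 2 is the more abundant form in adult striated muscle. *Tln1* (ENSMUSG00000028465.10, chr4:43544391-43575563, minus strand, 31.2 kb) had 12 WT and 41 *Mbnl1* KO tags, 34.9 and 86.0 tags per 1000000, so that the ratio was 2.46 (1.27 to 5.15). Without single-base tags the ratio was 1.64, with an interval from 0.843 to 3.43 that includes 1. The 3′UTR carried 4 and 11 tags (1.98, 0.587 to 8.54), coding exons 2 and 9 (3.24, 0.671 to 30.9), and introns 6 and 21 (2.52, 0.985 to 7.64). By intron the tags were few. Intron 1 of the longest coding transcript had 0 WT and 10 *Mbnl1* KO tags and intron 33 had 1 and 8, while intron 17 had 5 and 1. In intron 1 a cluster at chr4:43572479-43572517 had 0 WT and 6 *Mbnl1* KO tags. It reached 5 tags through *Mbnl1* KO tags alone, so no ratio is given for it.

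*Tln2* (ENSMUSG00000052698.7, chr9:67064894-67407510, minus strand, 343 kb) went the other way from *Tln1* when all tags were counted. It had 32 WT and 35 *Mbnl1* KO tags, 93.1 and 73.4 tags per 1000000, so that the ratio was 0.789 (0.474 to 1.32). Of these tags, 16 of the 32 in WT and 2 of the 35 in *Mbnl1* KO were single-base. Without them the numbers were 16 and 33, and the ratio was 1.01 (0.543 to 1.97), so that the libraries could not be separated in either setting. Scaled to the median gene, with all tags, the ratio was 0.452 (0.272 to 0.754), wholly below 1. Introns held 30 WT and 32 *Mbnl1* KO tags, and the 3′UTR 1 and 3. Intron 54 had 9 WT tags and 1 *Mbnl1* KO tag, all single-base, and they form the cluster at chr9:67075804-67075853. A second cluster, at chr9:67279922-67279956, had 4 and 1 tags, also all single-base. The *Tln1* and *Tln2* windows are printed to set a cluster with YGCY motifs beside one that is a run of A (chr4:43572483-43572512 and chr9:67075813-67075842, both minus strand).
Tln1 1: tagTGCTattctctgTGCCtgggacgatac
Tln2 1: aaaaaaaaaaaaaaaaaacaaaaaaacaaa

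**Figure D2:**
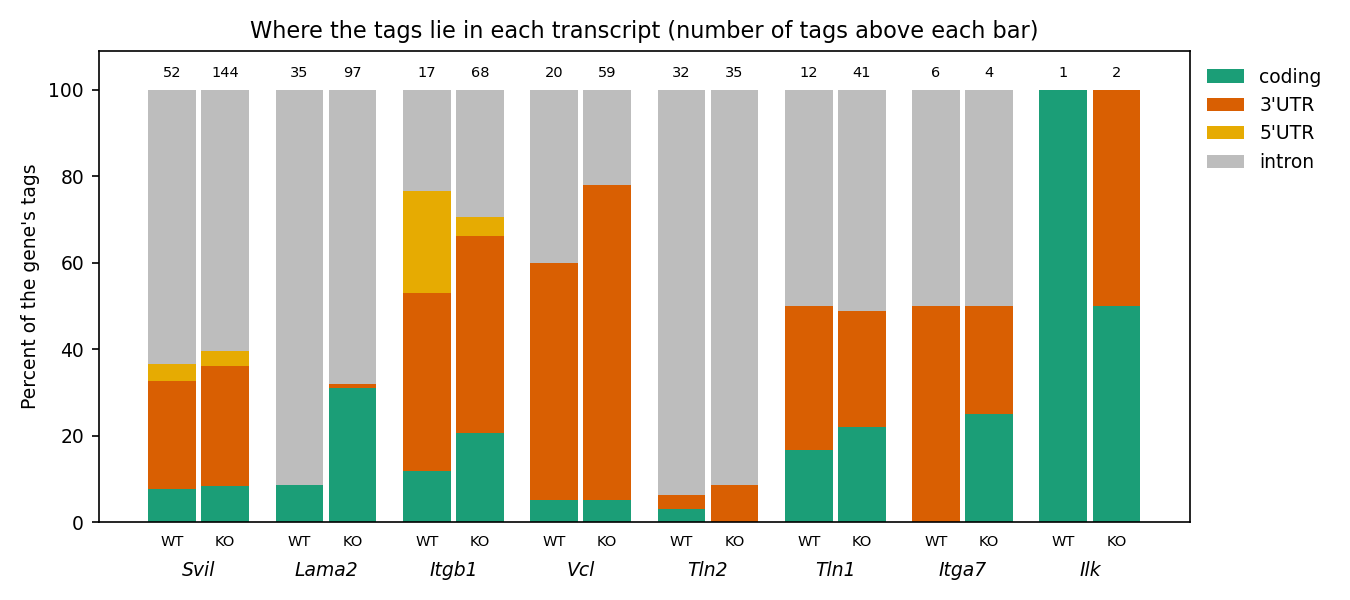
Percent of each gene's tags that lay in coding exons, 3′UTR, 5′UTR and introns, in WT and *Mbnl1* KO (KO) quadriceps, with the number of tags above each bar. *Vcl* and *Itgb1* had most of their exonic tags in the 3′UTR, and *Tln2* tags were nearly all intronic. *Lama2* had almost none in its 3′UTR, which is annotated at only 210 nt.

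*Vcl* encodes vinculin, which binds talin and reinforces its hold on actin. It carried 20 WT and 59 *Mbnl1* KO tags (ENSMUSG00000021823.8, chr14:21748655-21852895, plus strand, 104 kb), 58.2 and 124 tags per 1000000, for which the ratio was 2.13 (1.26 to 3.73). Without single-base tags the ratio was 1.45, and its interval of 0.861 to 2.55 includes 1. Although introns make up most of this gene, the 3′UTR held 11 of 20 WT tags and 43 of 59 *Mbnl1* KO tags. There the ratio was 2.82 (1.43 to 6.06), whereas the introns had 8 and 13 tags and a ratio of 1.17. Without single-base tags the 3′UTR ratio was 1.92 (0.975 to 4.14) and the intron ratio 0.799 (0.307 to 2.22), so both intervals include 1. The 3′UTR level was 17.9 tags per 1000000 per kb in WT and 50.6 in *Mbnl1* KO muscle. Coding exons had 1 and 3 tags.

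All 5 *Vcl* clusters lay in the 3′UTR, which is 1943 nt long in the longest coding transcript. Clusters 2, 3 and 4 follow each other between 746 and 883 nt after the last coding base, cluster 1 starts at 377 nt and cluster 5 ends at 1639 nt. The WT numbers were 2, 2, 2, 2 and 1 tags, and the *Mbnl1* KO numbers 3, 5, 6, 9 and 6, in order along the transcript. Clusters 2 to 5 reached 5 tags through *Mbnl1* KO tags alone, so their direction is partly set by that minimum, and each single interval includes 1. Cluster 3 stood on 50 reads in WT and 22117 in *Mbnl1* KO, the most in the *Mbnl1* KO library, and cluster 4 on 79 in WT, the most there. YGCY motifs were found in 4 of the 5 windows, and cluster 4, with the most tags, had none. The windows lie on the plus strand at chr14:21851336-21851365, chr14:21851710-21851739, chr14:21851768-21851797, chr14:21851803-21851832 and chr14:21852555-21852584.
Vcl 1: gtttcccccccTGCTGCTgacccTGCCtac
Vcl 2: cTGCCagtagatgtctgTGCTgaggccttg
Vcl 3: aatttctgagctgaagTGCTgcatttactt
Vcl 4: caaatcatcctaggctttggcagtcttctt
Vcl 5: agcagatctgtatagtTGCTtacctgatat

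*Ilk* encodes integrin-linked kinase, the scaffold that binds the β1 tail together with parvin and PINCH proteins. The gene (ENSMUSG00000030890.9, chr7:112885106-112891439, plus strand, 6.33 kb) had 1 WT and 2 *Mbnl1* KO tags, 2.91 and 4.20 tags per 1000000. Both values are under the 3 tags that a count of 0 allows (8.73 tags per 1000000 in WT and 6.30 in *Mbnl1* KO). The tags are thus too few to set the level of *Ilk* apart from that of a gene with a count of 0. None of them was single-base or intronic, and 1 in each library rested on at least 2 reads. The gene is short, and per kb it had 0.460 WT and 0.663 *Mbnl1* KO tags per 1000000. Over all protein-coding genes these levels were 0.252 and 0.407.

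*Svil* encodes supervillin, a membrane protein that binds F-actin and myosin II, whose muscle form is found at costameres. With 52 WT and 144 *Mbnl1* KO tags it carried more tags than any other of the 8 genes (ENSMUSG00000024236.10, chr18:4920538-5119297, plus strand, 199 kb). These are 151 and 302 tags per 1000000, for which the ratio was 2.0 (1.44 to 2.80). Without single-base tags there were 42 and 135 tags, and the ratio was 1.58 (1.11 to 2.29). Tags that rested on at least 2 reads numbered 24 and 101. The 3′UTR had 13 WT and 40 *Mbnl1* KO tags (2.22, 1.16 to 4.52), introns 33 and 87 (1.90, 1.26 to 2.93), coding exons 4 and 12 (2.16, 0.655 to 9.20), and the 5′UTR 2 and 5. Without single-base tags the 3′UTR ratio was 1.51 (0.793 to 3.08) and the intron ratio 1.67 (1.04 to 2.78). Its 3′UTR had the highest level of the 8 genes in both libraries, 43.5 tags per 1000000 per kb in WT and 96.5 in *Mbnl1* KO muscle.

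Of the 8 *Svil* clusters, 4 lie in the 861-nt 3′UTR, between 457 and 770 nt after the last coding base. Their tags numbered 0, 4, 5 and 3 in WT and 7, 7, 18 and 5 in *Mbnl1* KO, in order along the transcript. The deepest, cluster 7, had a ratio of 2.60 with an interval of 0.929 to 8.94, and stood on 1060 WT and 19246 *Mbnl1* KO reads. Cluster 5 had no WT tag and reached 5 tags through *Mbnl1* KO alone, so no ratio is given for it. Each of these 4 windows holds YGCY motifs, 3 of them TGCT in cluster 7. Of the 4 intronic clusters, clusters 1 and 2 were made of single-base tags, with 7 and 2 tags in WT and 1 and 7 in *Mbnl1* KO. Cluster 4 had 0 WT and 5 *Mbnl1* KO tags and lies 195 nt upstream of an exon.

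**Figure D3:**
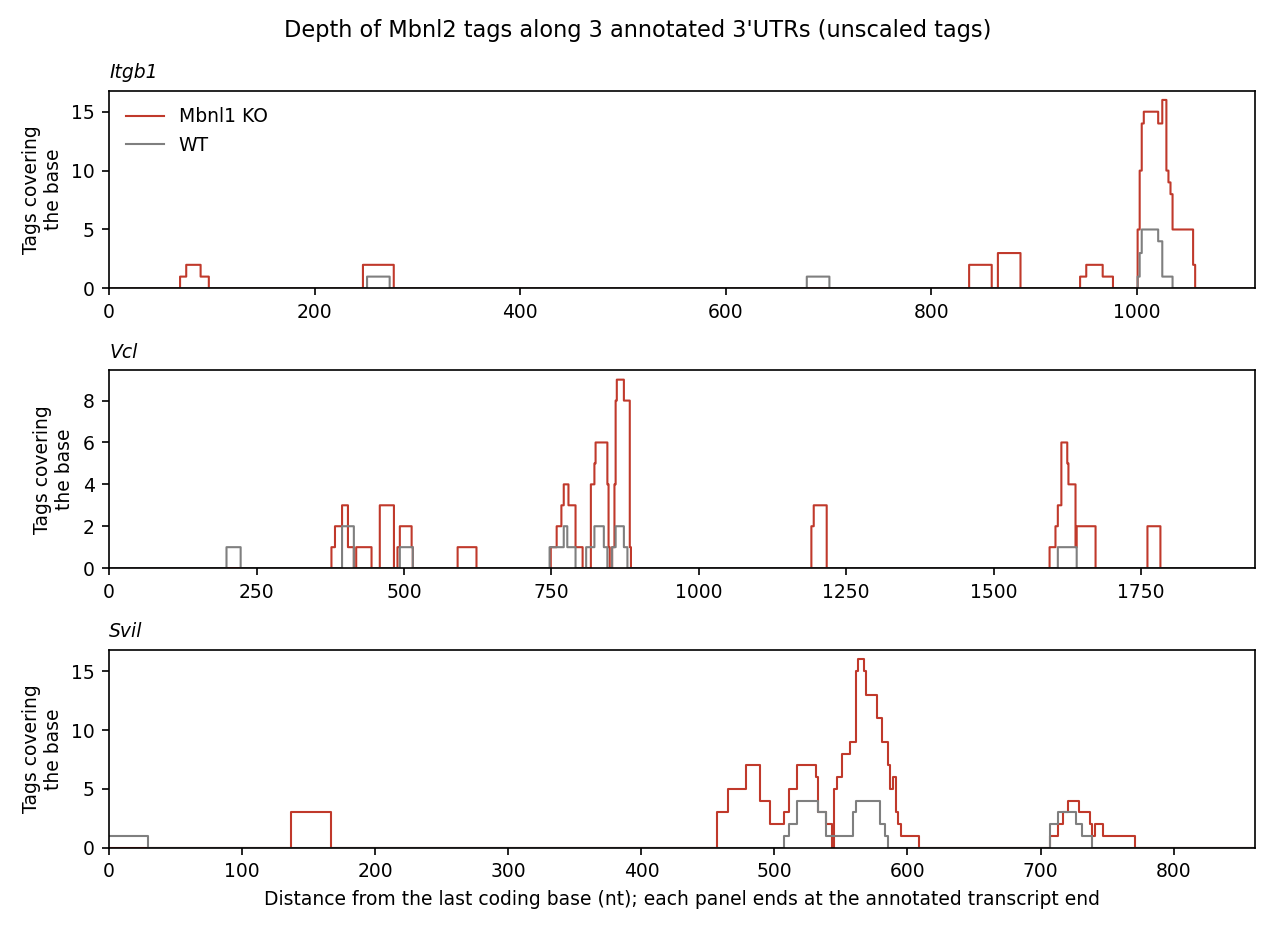
Number of WT (grey) and *Mbnl1* KO (red) tags that cover each base of the 3′UTRs of *Itgb1*, *Vcl* and *Svil*, unscaled, against the distance in nt from the last coding base; each panel ends at the annotated end. Apart from the first *Svil* cluster, covered by *Mbnl1* KO tags alone, most WT tags lie where *Mbnl1* KO tags pile up: the end of *Itgb1*, the middle of *Vcl* and the second part of *Svil*.

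Summed over the introns of *Svil*, tags lay close to exons more often than the share of bases there. Part of these tags lie in 1 stretch of short introns given below, so this is not shown for the gene as a whole. Leaving out single-base tags, 39.1% of 23 WT intron tags (interval 19.7 to 61.5) and 39.7% of 78 *Mbnl1* KO intron tags (28.8 to 51.5) were within 300 nt of an exon, where 12.2% of its intron bases are. For the 8 genes together the shares were 20.3% of 79 (12.0 to 30.8) and 21.9% of 215 (16.5 to 28.0), beside 10.7% of intron bases. *Svil* gave 9 of the 16 WT and 31 of the 47 *Mbnl1* KO tags near exons, and in the other 7 genes the shares were 12.5% of 56 (5.18 to 24.1) and 11.7% of 137 (6.82 to 18.3), beside 10.4% of bases. In *Tln1*, whose introns are short, 1 of 6 WT and 2 of 20 *Mbnl1* KO tags were near an exon, where 65.7% of intron bases are. In both *Svil* and the 8 genes the WT share lay within the *Mbnl1* KO interval. A stretch of *Svil* from intron 8 to intron 16 of the longest coding transcript (chr18:5054097-5063191), chosen after its values were seen, held 9 WT and 37 *Mbnl1* KO intron tags in 7476 nt of intron. All of them are among the 23 and 78 intron tags above. How many of the tags near exons lie in the stretch was not counted, and tags that overlap are not independent. That is 3.50 and 10.4 tags per 1000000 per kb of intron. Because the stretch was chosen for its tags, no ratio is given for it and it is not compared with the other introns. None of the 46 tags in the stretch was single-base, 31 rested on at least 2 reads, and 38 held a YGCY motif in the 30 nt around the tag's centre.

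Some annotated *Svil* transcripts skip exons in this stretch or at its edge. Within 300 nt of the 870-nt exon (chr18:5055978-5056847) there were 1 WT and 9 *Mbnl1* KO tags, and within 300 nt of the 165-nt exon (chr18:5057273-5057437) 1 and 5, where a tag between both is counted for both. The 81-nt exon at chr18:5054016-5054096, just upstream of the stretch, had 2 and 8 tags, and the 96-nt exon at chr18:5060513-5060608 1 and 4. A 7-nt exon in the stretch (chr18:5058661-5058667) had 0 tags within 300 nt in both libraries. These are unscaled tags of a stretch chosen for its tags, from libraries of unequal size, and no direction is read from them. Intronic cluster 3 of *Svil*, with 1 WT and 5 *Mbnl1* KO tags, lies 144 nt downstream of the 870-nt exon and holds a TGCT and a TGCC motif. Splicing of these exons was not measured in these libraries. In all 8 genes, 33 exons, some of a few nt, are skipped by some coding transcripts, and 9 of them had a tag of either library within 300 nt. The 9 include exons of the *Svil* stretch. The share over exons that are never skipped was not counted, so nothing is read from this number about skipped exons.

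The split by part of the transcript was then summed over the 8 genes. The 3′UTRs, 0.678% of the bases of these genes, held 39 of 175 WT tags (22.3%, interval 16.4 to 29.2) and 131 of 450 *Mbnl1* KO tags (29.1%, 25 to 33.5). With at least 2 reads per tag the order of the 2 shares turned, to 33.9% in WT and 33.3% in *Mbnl1* KO. Over all protein-coding genes the 3′UTR share was 16.1% in WT and 29.4% in *Mbnl1* KO muscle. The 3′UTR ratio of the 8 genes was 2.42 (1.68 to 3.56), beside 2.94 over all protein-coding genes. Coding exons had 14 and 70 tags and a ratio of 3.60 (2.01 to 6.93), beside 2.71. *Lama2* gave 3 of the WT and 30 of the *Mbnl1* KO coding tags. Introns had 116 and 241 tags and a ratio of 1.5 (1.20 to 1.89), beside 1.25. All 3 ratios stayed above 1 without single-base tags, at 1.65 (1.15 to 2.43) in 3′UTRs, 2.46 (1.37 to 4.73) in coding exons and 1.34 (1.03 to 1.76) in introns. Per kb, the 3′UTRs of the 8 genes had 12.0 WT and 29.1 *Mbnl1* KO tags per 1000000, against 1.58 and 4.64 for all genes, most of which carry few or no tags.

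**Figure D4:**
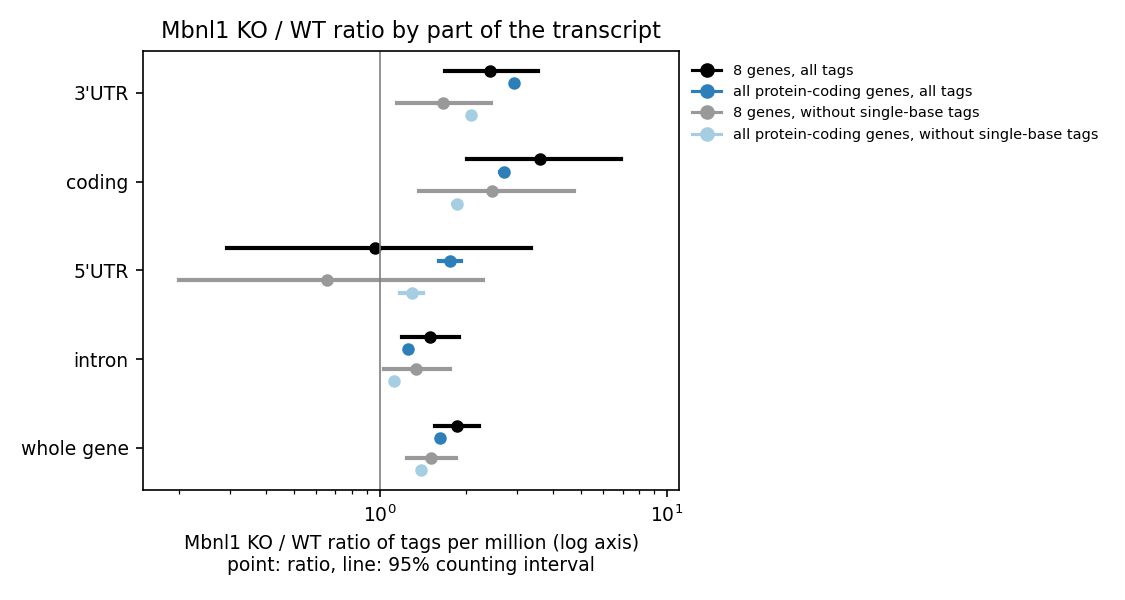
*Mbnl1* KO/WT ratio of tags per 1000000, with 95% counting intervals on a log axis, in 3′UTRs, coding exons, 5′UTRs, introns and whole genes, for the 8 genes (black, or grey without single-base tags) and for all protein-coding genes (dark and light blue). In both sets the 3′UTR and coding ratios lie above the intron ratio, and leaving out single-base tags lowers each of them.

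Among tags that were not single-base, YGCY motifs were common in the 3′UTRs of the 8 genes. A motif lay in the 30 nt around the centre of 33 of 39 WT tags (84.6%, interval 69.5 to 94.1) and of 94 of 131 *Mbnl1* KO tags (71.8%, 63.2 to 79.3). The same share over the 3′UTR tags of all protein-coding genes was 62.0% and 60.3%. In introns it was 51.9% of 79 WT tags (40.4 to 63.3) and 68.4% of 215 *Mbnl1* KO tags (61.7 to 74.5), beside 45.8% and 53.6% over all genes. In coding exons it was 42.9% of 14 WT tags (17.7 to 71.1) and 45.7% of 70 *Mbnl1* KO tags (33.7 to 58.1), and both intervals include the 51.9% and 52.4% over all genes. Tags of 1 cluster overlap, so they share sequence and are not independent. Counted by cluster, 14 of the 15 clusters not made of single-base tags held a motif. The same share over clusters of all genes was not counted, so this number cannot be called high or low for these genes. The 5 single-base clusters held none, which a run of 1 base could hardly do. Those 15 clusters had 33 WT and 111 *Mbnl1* KO tags, and the 5 single-base clusters 26 and 17. No ratio is given over clusters, since the minimum of 5 pooled tags favours the deeper *Mbnl1* KO library, and 3 of the 15 had no WT tag.

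The other genes of cell adhesion to the basement membrane were counted in the same way. Of 36 listed integrin, laminin, basement membrane and adhesion plaque genes, 21 had at least 20 tags. The minimum is on the tags of both libraries together, here and for all genes, so that genes such as *Itgav*, *Lamb2*, *Lama4*, *Nid1*, *Fermt2* and *Lamc1*, like *Itgb1* and *Tln1* above, pass it through *Mbnl1* KO tags alone. This favours high ratios, so the ratios of such genes, and the numbers called here and over all genes, are partly set by the minimum. The ratio was at least 2 in 13 and at most 0.5 in 0, beside 41.6% and 3.76% of all genes, and the interval lay above 1 in 11, beside 38.6%. The median was 2.06, beside 1.75 over all 3888 genes. Without single-base tags, 10 of 20 such genes had a ratio of at least 2, beside 29.1% of all genes, and 9 an interval above 1, beside 26.5%, and the median was 2.05 beside 1.48. Laminin chains and basement membrane proteins are taken first. *Lamc1*, the γ1 chain that pairs with the α2 chain, had 16 WT and 76 *Mbnl1* KO tags (ratio 3.42, 1.98 to 6.29). *Lamb2*, a β chain of muscle laminins, had 7 and 41 (4.22, 1.88 to 11.2), and *Hspg2*, the proteoglycan perlecan, 21 and 84 (2.88, 1.77 to 4.90). *Lama4*, the laminin chain of blood vessels, and *Nid1*, the linker protein nidogen, each had 8 and 35 tags (3.15, 1.44 to 7.87). *Lama3*, a further laminin α chain, had 7 and 20 tags and a ratio of 2.06 with an interval of 0.837 to 5.77 that includes 1. The ratios of these 6 genes without single-base tags were 2.49 at *Lamc1*, 2.88 at *Lamb2*, 1.97 at *Hspg2*, 4.30 at *Lama4*, 2.18 at *Nid1* and 2.46 at *Lama3*.

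Integrins followed. *Itgav*, the αV chain, had 4 WT and 42 *Mbnl1* KO tags, the highest ratio of the 21 genes with at least 20 tags, at 7.57 (2.75 to 29.1), and 4.92 without single-base tags. *Itgb5*, a β chain that pairs with αV, had 16 and 19 tags and the lowest ratio of these 21, 0.856 (0.417 to 1.78). Its direction turned without single-base tags, with 3 and 14 tags and a ratio of 2.30, and among genes with at least 20 such tags the lowest ratio was then that of *Lims2*, 0.886. *Itga1* and *Itga6* had ratios of 1.60 and 1.39 with intervals that include 1, and 2.30 and 1.11 without single-base tags. Among genes inside the plaque, *Fermt2* (kindlin-2, which activates integrins with talin) had 11 and 49 tags (3.21, 1.65 to 6.85). *Lpp* had 43 and 151 (ratio 2.53), *Lims1*, the PINCH partner of integrin-linked kinase, 23 and 75 (2.35), and *Tns1*, a tensin, 50 and 143 (2.06). *Parva*, the α-parvin, and *Lims2*, the second PINCH protein, both of which bind integrin-linked kinase, had ratios of 1.32 and 1.30 with intervals that include 1, as did *Parvb* (1.80), *Rsu1* (2.16), *Pxn* (1.80) and *Tns3* (1.86). *Ptk2*, the focal adhesion kinase, had 18 and 50 tags and a ratio of 2.0 (1.15 to 3.65). Without single-base tags the ratios of *Ptk2* (1.35), *Tns1* (1.43), *Lims1* (1.72) and *Rsu1* (1.80) were under 2, *Fermt2* (2.19) and *Lpp* (2.41) were above it, as was *Tns3* (2.13), and the ratio was 1.39 at *Parva*, 1.34 at *Parvb* and 1.87 at *Pxn*.

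**Figure D5:**
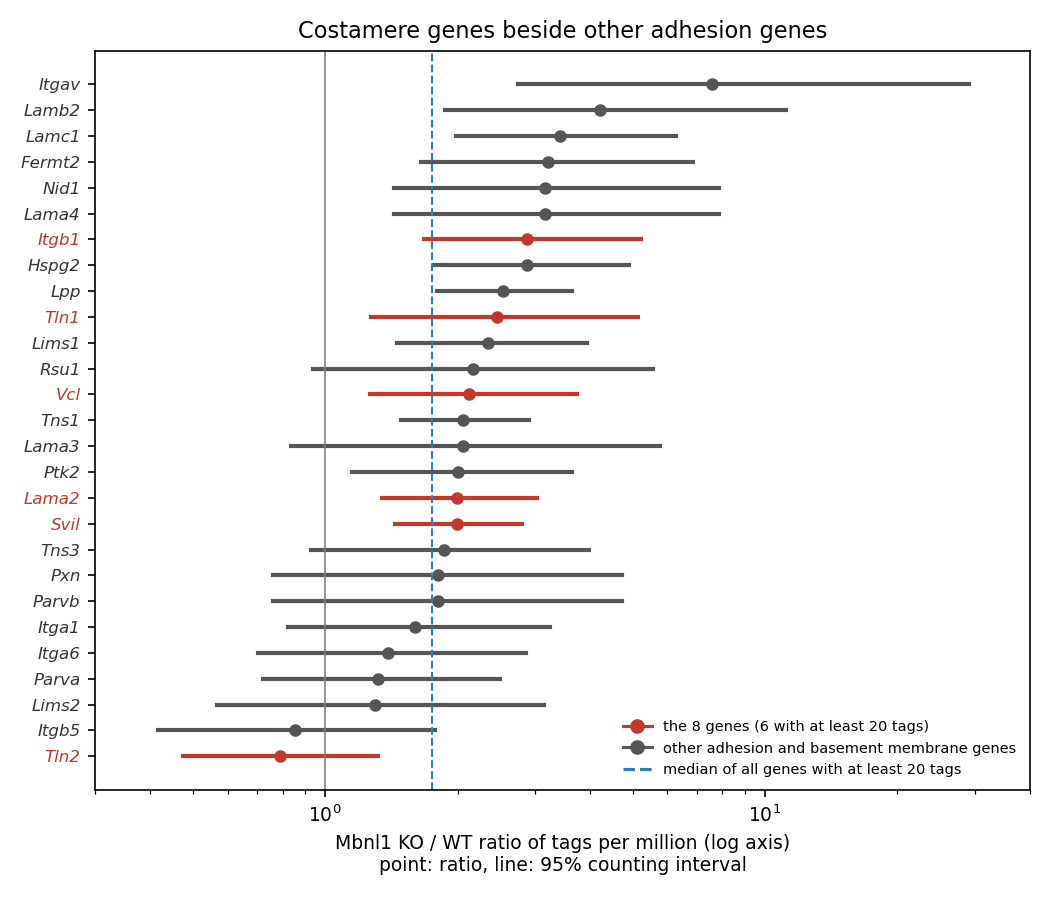
*Mbnl1* KO/WT ratio of tags per 1000000 with its 95% counting interval, on a log axis, for the 6 costamere genes (red) and 21 other adhesion and basement membrane genes (grey) with at least 20 tags; the dashed line is the median of 3888 genes (1.75). Ratios run from 0.789 at *Tln2* to 7.57 at *Itgav*, and at this scaling the costamere genes lie within the range of the others except *Tln2*, just below it. *Itgav* reached 20 tags through *Mbnl1* KO tags alone, which favours a high ratio.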

How the data were processed

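Quadriceps HITS-CLIP tags of Mbnl2 came as 1 merged table per genotype (WT and *Mbnl1* KO). Per the study's methods and the labels, the authors removed low quality reads, aligned the rest with BWA to mm9, discarded sequences under 20 nt, removed potential PCR duplicates and merged 3 mice. The tables nevertheless hold tags of 18 to 33 nt. The deposited count of each row is the number of reads behind that tag, without normalization, and each row was used as 1 tag.

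Python 3.11.15, numpy 2.4.6, pandas 2.3.3, scipy 1.17.1 and matplotlib 3.10.9 were used. A tag counted for a gene of the mm9 GENCODE annotation (vM1) when it overlapped the gene body on its strand, and for the class (coding exon, 3′UTR, 5′UTR, intron) that held most of its bases. Levels are tags per 1000000 tags of the library. Ratios have exact Clopper-Pearson 95% intervals from the *Mbnl1* KO share of the tags. A ratio was called at a fold of 2, in genes with at least 20 tags. A count of 0 allows up to 3 tags per library. Clusters are runs of overlapping tags pooled over both libraries, with at least 5 tags. Single-base tags are at least 70% one base in the reference.

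The 8 genes are named, and of 36 further adhesion genes only those with at least 20 tags. The members, lists and alternatives were chosen with earlier results of these data known. The interval code was run on counts simulated as independent tags, and the split into classes on a made-up gene. This checks the code and not whether the intervals hold for real tags, which overlap. Supplementary peak values were not used. A gene that overlaps another on the same strand shares tags with it.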

Additional observations from a re-analysis of the deposited data

How the results depend on the processing

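The direction of the summed ratio over the 8 genes (1.85) held under each of the 8 alternatives, but its size did not. It was 2.57 with raw tags, 1.06 (0.890 to 1.27) with libraries scaled so that the median gene has a ratio of 1, 1.51 without single-base tags, 3.78 with tags of at least 25 nt, and 1.39 without single-base tags and with at least 2 reads per tag. The number of the 8 genes with a ratio of at least 2, whatever their number of tags, was 3 and became 6 (1 of them *Ilk*, on 1 and 2 tags), 0, 0, 5 and 1 under these settings in that order, 5 with a fold of 1.5 and 0 with a fold of 3. The WT 3′UTR share of 22.3% was 33.9% with at least 2 reads per tag and 35.0% when single-base tags were left out as well, and the *Mbnl1* KO share of 29.1% was 33.3% and 33.7%, so that the WT share was then the higher. The cause of these shifts was not tested. Ratios of *Itgb1* (1.65 to 9.63), *Tln1* (1.10 to 4.68), *Vcl* (1.16 to 5.31), *Svil* (1.14 to 3.82) and *Lama2* (1.14 to 4.68) were above 1 under all 8, with the interval above 1 under 6, 4, 3, 5 and 7 of them, and at none of the 5 genes when scaled to the median gene. The ratio of *Tln2* (0.452 to 1.51) was above 1 under 3, and when scaled to the median gene its interval (0.272 to 0.754) lay below 1. No paired analysis was possible because 1 table holds all 3 mice of a genotype. *Ilk* and *Itga7* have too few tags for a ratio to be read.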

Other observations

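On the antisense strand of the 8 genes, 2 places gathered tags, both of them single-base. In *Tln2*, chr9:67163253-67163295 had 6 WT and 18 *Mbnl1* KO tags of mostly C, and in *Lama2*, chr10:27285736-27285791 had 8 WT tags and 1 *Mbnl1* KO tag of mostly A. These are unscaled tags, and no direction is read from them. In the 5 kb downstream of the 8 genes 2 WT and 4 *Mbnl1* KO tags were found on the strand of the gene.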
